A study of Mus musculus with 4 samples.

Results

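The kappa V segments of families 1 to 4 are gene segments that encode most of the variable domain of the mouse kappa light chain. They were taken as the rows of the count tables typed as immunoglobulin V gene or V pseudogene whose symbol begins with Igkv1-, Igkv2-, Igkv3- or Igkv4-. This gave 66 segments, of 141 Igkv segments and 37646 genes listed. Of the 66, 47 are V genes and 19 are pseudogenes. Family 1 holds 11 segments, family 2 holds 9, family 3 holds 13 and family 4 holds 33. Igkv segments of families 5 and above, 75 in number, served for comparison.

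Messenger RNA from sorted spleen B cells of 4 libraries, all of 1 group, was sequenced to compare normal germinal centre B cells with lymphoma cells, and the lymphoma samples were not analysed here. The mice were C57BL/6 controls of genotype YFPstopF/+Cg1Cre/+, named YC. In them a Cre recombinase expressed from the Ighg1 (Cg1) locus removes a stop cassette before YFP, so that YFP also stays on in memory and plasma cells whose precursors once expressed Cre. They were immunised with sheep red blood cells and, 20 days later, a second time, and living B220+YFP+ cells were sorted 10 days after that. No age was given, and the labels do not say whether each library came from a separate animal, so the spread between libraries may in part be technical.

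A kappa light chain gene is assembled in a precursor B cell when the RAG recombinase joins 1 of many V segments to 1 of a few J segments upstream of the single constant gene Igkc. A V segment in the same orientation as Igkc joins by deletion of the DNA between them, and a V segment in the opposite orientation joins by inversion. Most mature B cells transcribe 1 productive V-J-C unit, so V segment counts in a B cell population describe which light chains its cells carry, weighted by how much light chain RNA each cell holds. In the germinal centre, B cells multiply as clones and mutate their V exons, and antibody-secreting cells carry far more light chain RNA per cell than other B cells. In these libraries more cells of a clone and more RNA per cell cannot be told apart.

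All 66 segments lie on chromosome 6 of GRCm38 (mm10), between positions 67555497 and 70704177, from 22.3 to 3170 kb before Igkc (70726435 to 70726966, + strand). The families are arranged differently. All 33 segments of family 4 lie in the orientation opposite to Igkc, 1025 to 1971 kb before it. Of family 1, 9 segments lie in the same orientation and 2 in the opposite one; of family 2, 8 and 1; of family 3, 12 and 1. Family 3 lies next to the J segments, 22.3 to 228 kb before Igkc.

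Families are defined by sequence likeness. Across whole transcripts, median identity between members of the same family was 79.4% in family 1, 78.5% in family 2, 88.2% in family 3 and 90.1% in family 4, against medians of 64.9 to 71.6% between segments of different families. The closest relative of a segment among all Igkv segments had a median identity of 95.4% for families 1 to 4 and 93.1% for families 5 and above. The most abundant pair, Igkv1-117 and Igkv1-110, is shown because it bears on how its counts can be read. The last 240 bases of the V exon differ at 9 positions, given in capitals in Igkv1-110. These and the sequences below are germline sequences of GRCm38 from the GENCODE M21 transcripts, written 5′ to 3′ on the coding strand, and hold no mutation that the cells may carry.
Igkv1-117 (chr6:68121588-68121827, + strand): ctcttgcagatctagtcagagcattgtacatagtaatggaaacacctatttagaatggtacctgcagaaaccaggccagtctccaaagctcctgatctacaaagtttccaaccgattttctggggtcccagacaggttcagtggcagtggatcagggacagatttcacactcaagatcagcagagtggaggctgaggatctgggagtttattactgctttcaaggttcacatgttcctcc
Igkv1-110 (chr6:68271028-68271267, + strand): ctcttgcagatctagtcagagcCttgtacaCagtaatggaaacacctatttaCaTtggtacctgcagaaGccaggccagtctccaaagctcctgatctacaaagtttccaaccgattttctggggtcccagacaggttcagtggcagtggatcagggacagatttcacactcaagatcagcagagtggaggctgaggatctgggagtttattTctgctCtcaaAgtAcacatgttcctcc

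The 3′ end of the V exon encodes the start of the third complementarity-determining region, the loop that the V-J joint completes. The last 60 bases of the exon are given for some of the leading V genes of each family, to show how far segments that 50-base reads have to tell apart differ. Capitals mark bases that differ from the family's most abundant V gene, which stands first. In family 1 the 3 leading segments were:
Igkv1-117 (chr6:68121768-68121827, + strand): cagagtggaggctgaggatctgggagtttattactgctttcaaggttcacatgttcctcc
Igkv1-110 (chr6:68271208-68271267, + strand): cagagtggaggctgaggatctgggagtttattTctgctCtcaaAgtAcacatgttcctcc
Igkv1-135 (chr6:67610449-67610508, + strand): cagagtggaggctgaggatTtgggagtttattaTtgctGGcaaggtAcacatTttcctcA
In family 2, Igkv2-112 ends 1 base earlier than Igkv2-109 in alignment:
Igkv2-109 (chr6:68303099-68303158, + strand): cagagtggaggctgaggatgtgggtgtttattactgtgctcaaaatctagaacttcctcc
Igkv2-112 (chr6:68220647-68220706, + strand): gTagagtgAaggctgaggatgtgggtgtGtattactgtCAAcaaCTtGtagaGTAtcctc
In family 3 the segment nearest to Igkc is Igkv3-1:
Igkv3-2 (chr6:70699008-70699067, + strand): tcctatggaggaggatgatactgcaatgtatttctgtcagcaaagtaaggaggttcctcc
Igkv3-1 (chr6:70704118-70704177, + strand): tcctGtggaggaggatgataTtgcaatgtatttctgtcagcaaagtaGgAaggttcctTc
Igkv3-10 (chr6:70573171-70573230, + strand): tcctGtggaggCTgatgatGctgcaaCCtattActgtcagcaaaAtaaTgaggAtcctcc
In family 4, Igkv4-57-1 and Igkv4-91, which are not shown, differ from Igkv4-57 at 8 and 11 bases of this end. Igkv4-55 differs from Igkv4-57 at 2 bases:
Igkv4-57 (chr6:69575975-69576034, - strand): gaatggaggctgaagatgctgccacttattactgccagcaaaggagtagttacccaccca
Igkv4-72 (chr6:69226854-69226913, - strand): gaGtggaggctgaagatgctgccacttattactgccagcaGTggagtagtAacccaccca
Igkv4-55 (chr6:69607275-69607334, - strand): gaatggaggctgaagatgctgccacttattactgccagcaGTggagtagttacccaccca

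Total counts ran from 13777954 to 14629025, and levels are given as counts-per-million values (CPM) of that total. A count of 0 allows a level of up to 3 counts, which is 0.205 to 0.218 CPM in these libraries. Library 3 stood apart from the others. It held 1307 counts of the Y-linked Ddx3y, at most 3 elsewhere, and 6 counts of Xist, at least 8689 elsewhere. By these counts library 3 came from male cells and the others from female cells, so library 3 shares no animal with the others. Sex and other differences of library 3 cannot be told apart here. The kappa V counts of library 3 were also the fewest, 23428, against 66927, 68613 and 47025 in libraries 1, 2 and 4. The 8 germinal centre B cell markers and the 6 B lineage markers were each at 1 TPM (a level that also divides by exon length) or more in every library. So were all 8 plasma cell markers, whose summed level was 1070 TPM in library 3 and 2238, 1956 and 2008 TPM in libraries 1, 2 and 4, all 6 naive follicular B cell markers (1442 to 2626 TPM summed) and all 7 T cell markers (166 to 434 TPM summed). The germinal centre markers summed to 1434, 938, 1553 and 1217 TPM in libraries 1 to 4. That was below the naive follicular sum in every library and below the plasma cell sum in libraries 1, 2 and 4. Jchain alone gave 1574, 1368, 632 and 1431 TPM of the plasma cell sums in libraries 1 to 4. Klf2 alone gave 753, 1630, 783 and 1068 TPM of the naive follicular sums. Sums over lists of different genes do not give cell numbers. Of the 5 measured pre-B cell markers none reached 1 TPM in every library and Rag2 was at 0. The part of other cell types in the results below was not tested.

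Families 1 to 4 together supplied 24719, 21157, 8365 and 15323 counts in libraries 1 to 4. That was 36.9, 30.8, 35.7 and 32.6% of all Igkv counts, or 34.01% ± 2.80 (SD, n = 4), against 66.0% ± 2.80 for families 5 and above. Exact 95% binomial intervals were 36.6 to 37.3%, 30.5 to 31.2%, 35.1 to 36.3% and 32.2 to 33.0%, and did not overlap. They cover the error of counting alone, and reads that carry no molecular identifier can come from the same molecule. In absolute terms, families 1 to 4 had 1755, 1536, 572 and 1071 CPM, and were lowest in library 3; the mean share without library 3 was 33.5%. Set against the constant gene instead, their counts amounted to 10.4, 9.42, 8.21 and 8.42% of the Igkc counts, so the low level of library 3 was shared by Igkc (6963 CPM in library 3 and 12727 to 16837 CPM in the others).

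Family 4, the largest, was the most abundant of the 4 families in libraries 1, 3 and 4, and family 1 was the most abundant in library 2. Family 4 took 17.6, 9.68, 14.96 and 13.95% of Igkv counts in libraries 1 to 4 (14.1% ± 3.30, SD, n = 4). Family 1 took 8.99, 15.02, 9.05 and 10.3% (10.8% ± 2.85). Library 2 was thus lowest for family 4 and highest for family 1. Family 3 took 9.89, 5.33, 10.4 and 5.68% (7.81% ± 2.68), with libraries 1 and 3 above libraries 2 and 4. Family 2 took 0.427, 0.813, 1.33 and 2.69% (1.31% ± 0.986), and its mean was 0.857% without library 4. Family 2 was the lowest in every library, and the order of families 1, 3 and 4 changed between libraries.

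**Figure D1:**
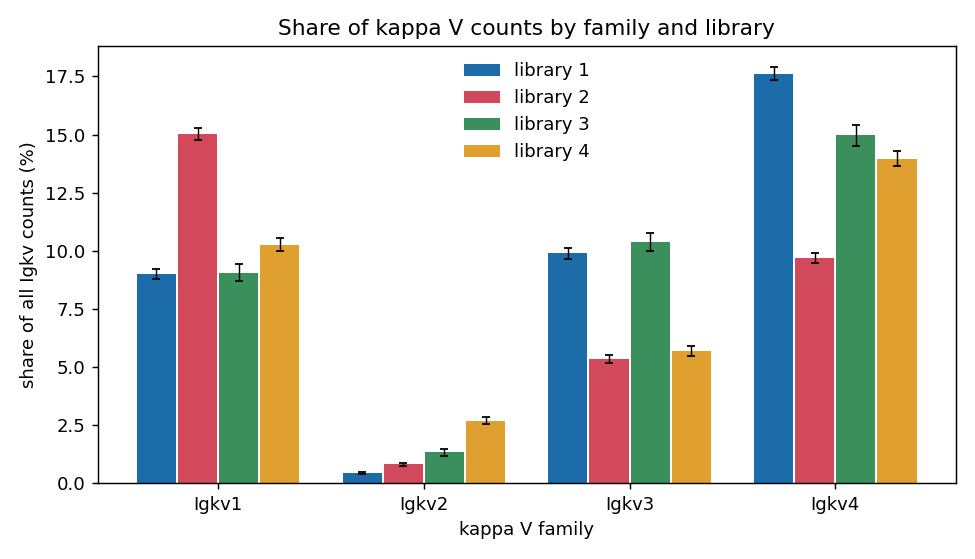
Share of all Igkv counts (y axis, percent) taken by each of the families 1 to 4 (x axis) in each library (bar colour); error bars are exact 95% binomial intervals and cover counting error only. In library 2 family 4 stands at 9.68% and family 1 at 15.02%, and family 2 stays at or below 2.69%.

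By mean TPM, which accounts for the exon length of 272 to 501 bases, the leading members were Igkv1-117 (951 ± 750 TPM), Igkv1-110 (759 ± 449), Igkv4-57 (751 ± 540), Igkv3-2 (425 ± 216), Igkv1-135 (385 ± 82.6) and Igkv3-1 (364 ± 585). Neighbours in this order differed by less than the larger of their SDs, and the order by CPM was the same. A different member led each library. Igkv4-57 led library 1 with 3532 counts, 14.3% of the counts of families 1 to 4. Igkv1-117 led library 2 with 5371 counts (25.4%), Igkv3-2 led library 3 with 1024 (12.2%) and Igkv1-110 led library 4 with 1998 (13.0%). In all, 19 segments were among the 10 highest of at least 1 library, and Igkv1-110, Igkv1-117, Igkv1-135 and Igkv4-57 were among them in all 4.

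Counts were spread over a few segments. In libraries 1, 3 and 4, 6 segments supplied 50% of the counts of families 1 to 4, and in library 2, 4 segments did. For 90% of the counts, 19, 18, 23 and 21 segments were needed. The effective number of segments, obtained by squaring each segment's share within families 1 to 4, adding these up and inverting the result, was 14.9, 9.01, 16.9 and 15.8 (14.1 ± 3.52, SD, n = 4). Families 5 and above had 15.8, 9.33, 20.9 and 18.8. Library 2 was the most concentrated in both sets, and the fewest counts, those of library 3, went with the highest effective number in both.

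In family 1, Igkv1-117 had 2195, 5371, 827 and 1481 counts in libraries 1 to 4, or 156, 390, 56.5 and 103.5 CPM (176 ± 148 CPM, SD, n = 4; 105 CPM without library 2). Its near copy Igkv1-110 had 2133, 3295, 392 and 1998 counts, or 151, 239, 26.8 and 140 CPM (139 ± 87.1 CPM). Both were highest in library 2 and, in CPM, lowest in library 3. As a share of Igkv counts Igkv1-117 was at 3.28, 7.83, 3.53 and 3.15%, lowest in library 4. Together they took 6.47, 12.6, 5.20 and 7.40% of Igkv counts, and so made up most of family 1 in each library. The ratio of Igkv1-110 to Igkv1-117 was 0.972, 0.613, 0.474 and 1.35. Of the 352 windows of 50 bases in the Igkv1-110 transcript, 177 also occur in Igkv1-117, so many reads of that length cannot be assigned to one of them, and their ratio is uncertain.

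Igkv1-135, the segment that stands 3116 kb before Igkc, had the smallest range in CPM among members averaging 10 CPM or more. It had 926, 1160, 643 and 1120 counts, or 65.7, 84.2, 44.0 and 78.3 CPM (68.0 ± 17.8 CPM), a range of 1.92-fold. As shares of Igkv counts its range was 1.98-fold, wider than the 1.73-fold of Igkv4-72. Igkv1-88, whose sequence shares no 50-base window with another gene, had 449, 259, 129 and 127 counts (17.1 ± 10.9 CPM). Igkv1-132 was counted mostly in library 1. It had 235, 0, 4 and 26 counts, so that its level was at least 76.6-fold higher in library 1 than in library 2. At the other end, Igkv1-35, picked after its values were seen, is annotated as a V gene and had 1 count over the 4 libraries.

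In family 2, 3 V genes supplied nearly all counts, and each had its highest CPM in a different library. Igkv2-109 had 70, 146, 163 and 1142 counts, or 4.97, 10.6, 11.1 and 79.8 CPM (26.6 ± 35.6 CPM; 8.90 CPM without library 4), and made up 90.4% of the family's counts in library 4. Igkv2-112 had 31, 385, 75 and 38 counts (9.48 ± 12.4 CPM; 3.33 CPM without library 2), with library 2 above the others. Igkv2-137, the segment farthest from Igkc, had 183, 25, 73 and 80 counts (6.35 ± 4.73 CPM; 4.13 CPM without library 1). The 6 remaining segments are pseudogenes. Igkv2-116 had 4 counts in all and Igkv2-107 had 4, and Igkv2-113, Igkv2-105, Igkv2-95-1 and Igkv2-93-1 had 0 in every library.

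In family 3, Igkv3-2 had 645, 1775, 1024 and 619 counts, or 45.8, 129, 70.0 and 43.3 CPM (72.0 ± 39.8 CPM). Its neighbour Igkv3-1 had 2867, 153, 63 and 274 counts, or 204, 11.1, 4.31 and 19.2 CPM (59.5 ± 96.2 CPM; 11.5 CPM without library 1). Library 1 therefore supplied most of the Igkv3-1 counts, and its CPM there was 47.3-fold that in library 3. As shares of Igkv counts, 4.28, 0.223, 0.269 and 0.583% in libraries 1 to 4, library 1 was 19.2-fold above library 2, the lowest. Igkv3-2, which is 92.8% identical to it and lies 27.4 kb from Igkc, with Igkv3-1 at 22.3 kb, was highest in library 2 in CPM and in library 3 by share (4.37%). Igkv3-10 was also highest in library 1, with 1623, 387, 180 and 199 counts (42.4 ± 49.1 CPM; 18.1 CPM without library 1). Igkv3-7 had 644, 223, 469 and 466 counts (31.6 ± 12.1 CPM), a 2.82-fold range in CPM and a 6.16-fold range by share. Igkv3-12 had 112, 560, 353 and 281 counts (23.1 ± 13.5 CPM), so that in CPM it was lowest where Igkv3-7 was highest and highest where Igkv3-7 was lowest. By share both were highest in library 3, at 1.51% for Igkv3-12 and 2.002% for Igkv3-7.

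Family 4 was led by Igkv4-57, with 3532, 1112, 885 and 1194 counts, or 251, 80.7, 60.5 and 83.5 CPM (119 ± 88.5 CPM; 74.9 CPM without library 1). In CPM library 1 stood apart. By share, 5.28, 1.62, 3.78 and 2.54%, library 3 lay nearer to library 1 than to library 2. Igkv4-72 had the smallest range of the family among members averaging 10 CPM or more, with 634, 857, 383 and 738 counts (46.2 ± 15.1 CPM), a 2.38-fold range in CPM and 1.73-fold by share. Igkv4-57-1 had 1206, 825, 131 and 212 counts (42.3 ± 36.7 CPM; 27.9 CPM without library 1), and Igkv4-91 had 795, 1056, 212 and 119 counts (39.0 ± 33.0 CPM), both higher in libraries 1 and 2 than in libraries 3 and 4. Igkv4-55 had 294, 335, 259 and 1372 counts, or 20.9, 24.3, 17.7 and 95.9 CPM (39.7 ± 37.6 CPM; 20.96 CPM without library 4), and led the family in library 4. Igkv4-63 had 900, 115, 22 and 120 counts (20.5 ± 29.1 CPM; 6.08 CPM without library 1). Igkv4-61 had 655, 11, 233 and 426 counts (23.2 ± 19.5 CPM), and its range of 58.2-fold was the widest among members with at least 10 counts in every library. Its lowest count, 11, is close to that limit. Of its 333 windows of 50 bases, 101 also occur in Igkv4-74, which had 44, 149, 60 and 115 counts. The width of this range is therefore uncertain.

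**Figure D2:**
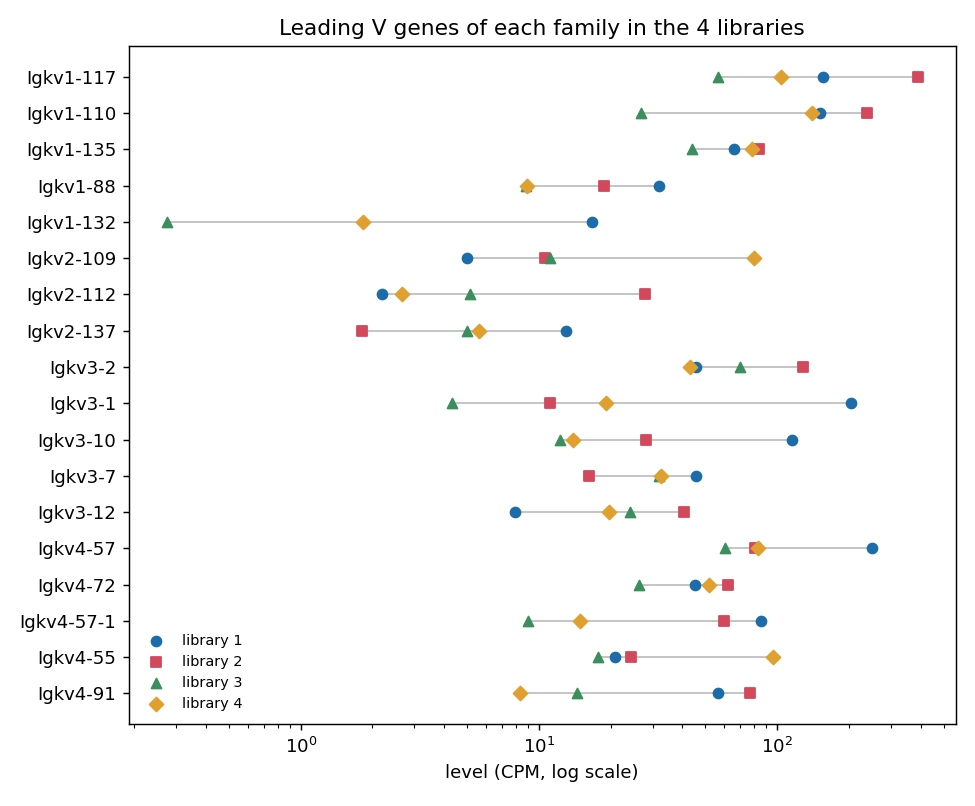
Level in CPM (x axis, log scale) of the 5 V genes with the highest mean in each of the families 1, 3 and 4, and of the 3 V genes of family 2 (y axis), in libraries 1 to 4 (marker and colour); grey lines join the lowest and highest plotted values, and the 0 counts of Igkv1-132 in library 2 cannot be drawn on a log axis. Igkv1-135 spans 44.0 to 84.2 CPM and Igkv3-1 spans 4.31 to 204 CPM.

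Pseudogenes took little of the counts. The 19 of them had 0.120, 0.160, 0.696 and 0.189% of Igkv counts in libraries 1 to 4. Only Igkv4-77 and Igkv4-73 had at least 10 counts in every library, against 36 of 47 V genes. Igkv4-77 had 27, 29, 118 and 20 counts (3.37 ± 3.14 CPM; 1.81 CPM without library 3), and its 118 counts made up 72.4% of the pseudogene counts of library 3. Igkv4-73 had 28, 32, 20 and 36 counts (2.05 ± 0.504 CPM), the smallest range in CPM, 1.84-fold, of the 38 members with at least 10 counts in every library. Igkv4-60 had 3, 13, 10 and 20 counts, Igkv4-56 had 4, 8, 7 and 6, and Igkv3-11 had 6, 3, 2 and 2. Igkv4-77 is 95.5% identical to Igkv4-68 and Igkv4-73 is 95.5% identical to Igkv4-79, both V genes, and reads of a V gene counted for its pseudogene relative cannot be told apart here from its own.

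Along the locus, members with high counts were found at both ends and in the middle. The segments in the same orientation as Igkc, 29 of 66, held 50.5, 67.4, 56.5 and 56.3% of the counts of families 1 to 4 (57.7% ± 7.06, SD, n = 4), and the 37 in the opposite orientation held the rest. In library 1 both orientations were nearly equal, and in library 2 the same orientation held the larger share. Igkv1-135 and Igkv3-2, both among the 5 highest by mean CPM, stand 3116 and 27.4 kb before Igkc.

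**Figure D3:**
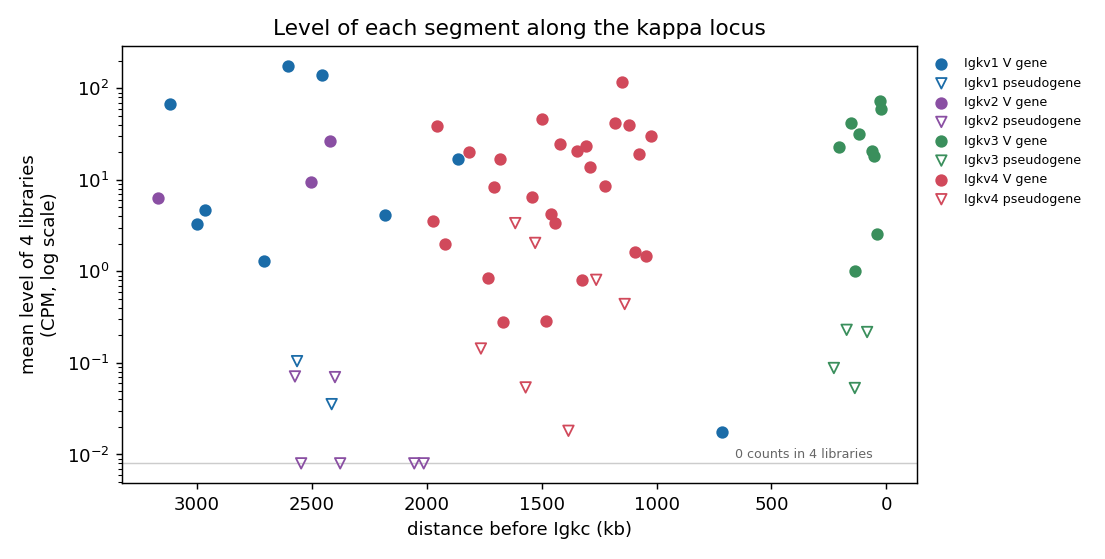
Mean level over the 4 libraries in CPM (y axis, log scale) of each of the 66 segments against its distance before Igkc in kb (x axis, the constant gene to the right), coloured by family, with V genes as filled circles and pseudogenes as open triangles. Igkv1-117 (176 CPM) stands 2605 kb away and Igkv3-2 (72.0 CPM) 27.4 kb away; the 4 pseudogenes on the grey line had 0 counts.

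The 66 segments held similar ranks in all libraries when silent segments were included and less so among the well-counted ones. Spearman's rho between 2 libraries across the 66 segments was 0.817 to 0.917 over the 6 pairs of libraries (median 0.866). Across the 38 segments with at least 10 counts in every library it was 0.542 to 0.759 (median 0.611). The same figures for families 5 and above were 0.891 to 0.908 across 75 segments and 0.584 to 0.765 across 40. These coefficients are descriptions across segments of 1 library pair, which share their total, and segments are not independent replicates.

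Whether a segment varied between libraries beyond what its level predicts was tested with edgeR's quasi-likelihood dispersions over all 11982 genes with enough counts. The biological coefficient of variation of these was 21.8%. Of all genes tested, 4.97% passed at an unadjusted p under 0.05 and 0.00835% (1 gene, Igkv14-126) at an adjusted p under 0.05 (Benjamini-Hochberg). Of families 1 to 4, 38 segments were tested, and 28 were left out because at least 1 library had fewer than 10 counts. The segments left out include some with a high count in 1 library, such as Igkv1-132 with 235, 0, 4 and 26. Of the 38, 35 passed unadjusted and 0 adjusted. Families 5 and above had 36 of 40 unadjusted and 1 adjusted. The median ratio of a gene's quasi-dispersion to the trend was 21.7 over the 38 segments and 0.895 over all genes tested. Varying segments were thus common in both sets of families, and no difference between the sets was tested.

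Igkv3-1 came nearest to the adjusted threshold, with a ratio of 172 (edgeR unadjusted p = 2.04e-05, adjusted p = 0.0594), the third smallest p of all genes. Next were Igkv4-63, Igkv3-10, Igkv2-109 and Igkv4-61, with ratios of 74.7, 64.4, 64.2 and 60.1 and an edgeR adjusted p of 0.156 each. Igkv4-92, Igkv1-122 and the pseudogene Igkv4-73 did not pass even unadjusted, with ratios of 5.37, 1.97 and 0.826 and an edgeR adjusted p of 0.990 each. Igkv1-135, Igkv3-7 and Igkv4-72, with the smallest CPM ranges among members of at least 10 CPM, still had ratios of 6.18, 7.14 and 8.45. The number of segments called depended on the estimator and on the kind of call. With edgeR's robust option, modified as given under processing, 15 of the 38 segments and 0.526% of all genes passed the adjusted threshold. DESeq2 marked 25 of the 38 as dispersion outliers, a flag that carries no adjusted p, against 1.33% of all genes. Without the filter on low counts, under which 0.844% of genes passed, 31 of 62 segments passed in edgeR. Without library 3, 5 segments passed in edgeR, where 19 of all 12241 genes tested passed and 4 of families 5 and above. Without library 4, 1 segment passed, where 3 of all 12071 genes passed and 1 of families 5 and above.

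**Figure D4:**
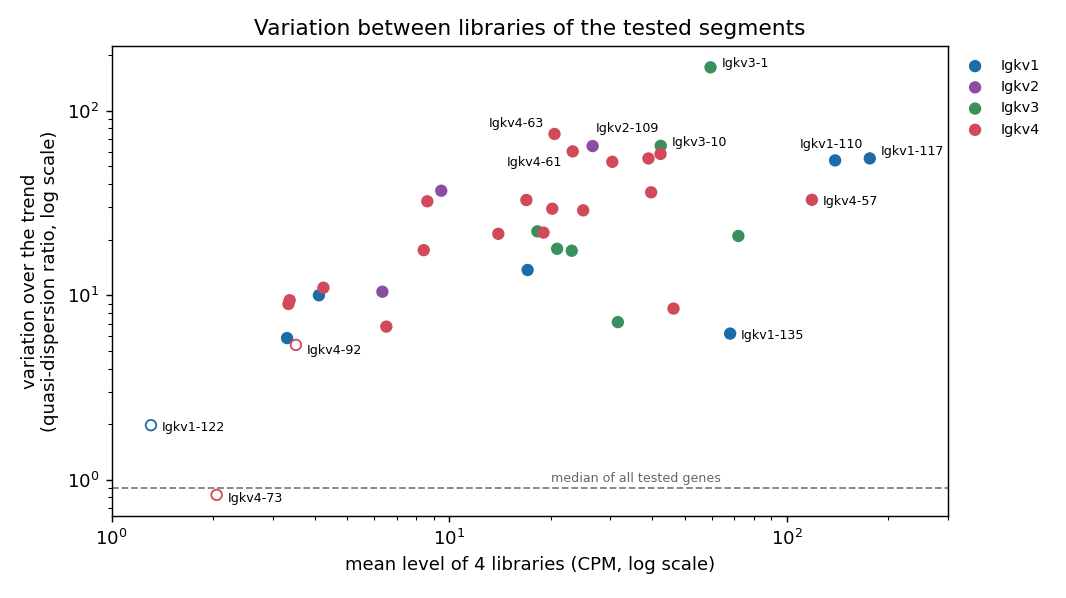
Ratio of each tested segment's quasi-dispersion to the trend (y axis, log scale) against its mean level in CPM (x axis, log scale), coloured by family; filled points passed at an unadjusted p under 0.05 and open points did not, and the dashed line is the median of all genes tested. Igkv3-1 stands highest at 172, and the pseudogene Igkv4-73 lies at 0.826, below the line at 0.895.

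Over the 38 segments with at least 10 counts in every library, the highest library exceeded the lowest 1.84-fold to 58.2-fold in CPM (median 6.41-fold), and 8 segments exceeded 10-fold. As shares of Igkv counts, which take out the differing kappa total, the ratios were 1.73 to 62.0 (median 5.91), with 9 over 10. Library 1 held the highest share for 13 of the 38 segments, library 2 for 6, library 3 for 14 and library 4 for 5. The lowest share fell in library 1 for 14, in library 2 for 12, in library 3 for 4 and in library 4 for 8. Each library thus had segments at both extremes, and dividing by the kappa total left the spread about as wide.

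How reads of 50 bases can be assigned limits single values. Over the 66 segments a median of 75.3% of the 50-base windows of a transcript occurred in no other annotated gene, against 95.5% over families 5 and above. For 7 of 66 segments, and 29 of 75 of families 5 and above, every window was unique. Among V genes with at least 10 counts in every library, 36 in number, the median was 64.7%, and the lowest, that of Igkv4-59, was 25.7%. Igkv1-117 had 50.1% and Igkv4-57 49.2%, whereas every window of Igkv1-88, Igkv2-112 and Igkv4-92 was unique. How reads that match several genes were counted was not given in the sources used here, and its part in the levels was not tested. The windows are of germline sequence, so they do not cover mutations or V-J joints in the reads, whose part was not tested either.

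**Figure D5:**
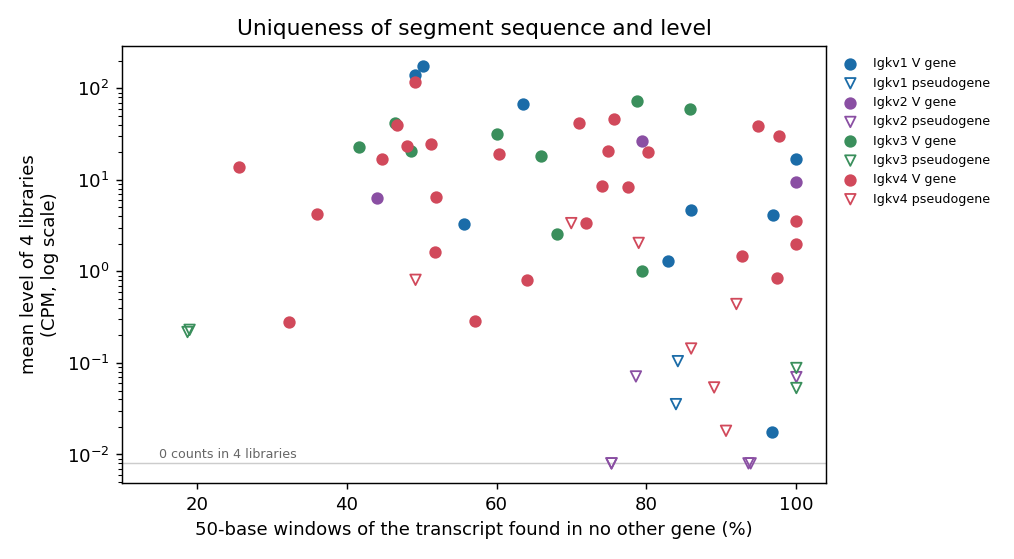
Mean level over the 4 libraries in CPM (y axis, log scale) of each of the 66 segments against the share of its 50-base windows found in no other annotated gene (x axis, percent), coloured by family, with V genes as filled circles and pseudogenes as open triangles. Igkv1-117, Igkv1-110 and Igkv4-57, the 3 highest, lie at 49.1 to 50.1%.

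Other pairs of close relatives gave sums that were steadier or no steadier than their members, and only some such pairs are given here. Igkv3-12 and Igkv3-7, 96.7% identical, share 117 of the 310 windows of Igkv3-12. Their ratio ran through 0.174, 2.51, 0.753 and 0.603 in libraries 1 to 4, whereas their sum was 53.7, 56.8, 56.2 and 52.2 CPM. As a share of Igkv counts the sum was 1.13, 1.14, 3.51 and 1.59%, so it was even only per total count. Igkv3-10 and Igkv3-5, 98.3% identical, had ratios of 2.60, 2.85, 1.05 and 0.783, and their sum of 160, 38.0, 24.0 and 31.7 CPM was highest in library 1, as were both members.

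Of 23 genes of kappa transcription and V(D)J recombination, 20 were at 1 TPM or more in every library. The octamer-binding factor Pou2f2 (Oct-2) had 197 ± 33.3 TPM (SD, n = 4) and its coactivator Pou2af1 685 ± 192 TPM. The PU.1-related Spib had 427 ± 91.6 TPM, Irf4, which binds the 3′ kappa enhancer with PU.1, 143 ± 35.3 TPM, and Pax5, which maintains B cell identity, 318 ± 33.4 TPM. The ubiquitous octamer factor Pou2f1 was at 6.23 ± 0.843 TPM. The 3 below the limit act in V(D)J joining. Rag1 had 2 counts, in library 4 only, Rag2 had 0 in every library, and Dntt, which adds untemplated bases at joints, had 0.0740 to 0.542 TPM. Other listed genes of joining, Xrcc5, Xrcc6, Xrcc4, Lig4, Prkdc, Dclre1c and Nhej1, were each at 1 TPM or more in every library. Their means ran from 3.78 TPM (Xrcc4) to 32.0 TPM (Xrcc5).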

How the data were processed

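The members, gene lists and tests were chosen with earlier results of these data known. The authors deposited 1 table per library of raw read counts by gene, whole numbers with no normalisation. The submitters' processing notes name STAR 2.5.2b, featureCounts 1.6.0, FastQC and the build mm10. Per the labels the libraries were poly(A)-selected and read as single ends of 50 bases, with 20 M reads planned. Which annotation release and strand setting were used, and how multiply matching reads were counted, is not given in the sources used here.

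CPM used the library total and shares the sum of all Igkv counts. Exon lengths for TPM, positions and transcripts came from GENCODE M21 (GRCm38), which all 66 members matched. Identity is from global alignments (Biopython 1.88). A window of 50 bases was called unique where it occurred in no other annotated gene. Share intervals are exact (Clopper-Pearson, scipy 1.17.1) at 95%.

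Variation was tested over 11982 genes with edgeR 4.0.16 (R 4.3.3), after filterByExpr and TMM, from glmQLFit with an intercept alone. The upper tail of F gave a p for each quasi-dispersion over its trend, adjusted over all genes tested (Benjamini-Hochberg, threshold 0.05). With the robust option, the largest prior degrees of freedom among the genes were used for every gene. This gives genes that stand out a smaller p than their own value would. The script was tested on simulated data. These p-values measure the spread between libraries only, which may in part be technical. DESeq2 1.42.0 served as an alternative.

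Members were named by a rule: the 5 highest by mean CPM in each family, the 2 highest in each library, the 5 with the smallest p, the 3 of at least 10 CPM with the smallest range, and the 5 highest pseudogenes. Members outside it were named after their values were seen. Promoters and recombination signals were not analysed here. 1 gene of the kappa list is not reported here.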

Additional observations from a re-analysis of the deposited data

Results flagged for a closer look

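Of 35 values checked, 10 had 1 library farther from the other 3 than Dixon's 95% critical value for 4 samples allows. The 35 were the CPM of the 27 named members and 8 values of families, which are their shares, the pseudogene share, the effective number and the summed CPM. Chance flags about 1 in 20 groups, a rate that does not hold here, since several members were named for being highest in a library or for a small p in the variation test. In CPM, library 1 stood above the rest for Igkv3-1 (204 CPM), Igkv4-57 (251 CPM), Igkv3-10 (115 CPM), Igkv4-63 (63.9 CPM) and Igkv1-132 (16.7 CPM). Library 4 did so for Igkv4-55 (95.9 CPM) and Igkv2-109 (79.8 CPM), library 2 for Igkv2-112 (27.9 CPM) and library 3 for Igkv4-77 (8.07 CPM). With shares of Igkv counts in place of CPM, a comparison added after seeing the data, 4 of these 9 remained: Igkv3-1, Igkv4-63, Igkv1-132 and Igkv4-77. By share Igkv1-117 (7.83% in library 2, the highest) and Igkv4-61 (0.0160% in library 2, the lowest) were added. The share of pseudogenes of families 1 to 4 in all Igkv counts was 0.696% in library 3, and Igkv4-77 made up most of it.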

How the results depend on the processing

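The share of families 1 to 4 was 34.01% as reported. It was 38.2% with the highest Igkv segment of each library left out, which is a segment of families 5 and above in each, and 33.04 to 35.1% with each library left out in turn. V genes alone, pooled counts and, chosen after seeing the data, counts divided by exon length gave 33.8, 33.8 and 33.2%. The effective number of segments was 14.1, and 20.8 as the exponential of the Shannon entropy; leaving out a library gave 13.2 to 15.9. Members past an unadjusted p under 0.05 numbered 35, and 26 to 33 with a library left out. Of all genes tested, 595 of 11982 passed, and 557 to 606 of 12071 to 12241 with a library left out. Members past the adjusted threshold in edgeR numbered 0 with either normalisation or a filter at 1 CPM, 15 with the modified robust option and 31 of 62 with no filter. DESeq2 marked 25 as dispersion outliers, without an adjusted p. In edgeR, leaving out a library gave 0 to 5 members past the adjusted threshold, and 0 to 19 of all genes tested. Mean CPM moved by over 1.5 times without 1 library for 14 of the 27 named members. TMM scaling moved none of the 27 by more than its SD between libraries, and a total without mitochondrially encoded genes moved 2. That SD is a wide limit, 96.2 CPM around a mean of 59.5 CPM for Igkv3-1, and can hide changes. The total without mitochondrially encoded genes raised the mean of each of the 27. That of Igkv1-117 went from 176 to 226 CPM and that of Igkv3-1 from 59.5 to 75.0 CPM. No paired analysis was possible because the 4 libraries form 1 group. A segment with a count of 0 may still be transcribed at up to 0.205 to 0.218 CPM.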
